A study of Mus musculus with 9 samples.

Results

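The genes described here are 9 flow-responsive and vasoactive genes of the brain endothelium: Klf2, Klf4, Nos3, Edn1, Ednrb, S1pr1, Calcrl, Ramp2 and Ptgs1. They were chosen by name and not by a cut on a measured value, though with earlier results of these data known. The deposited matrix holds 23420 genes, and all 9 passed the filter on low counts that left 13317 genes for testing. The data were 9 bulk RNA-seq libraries, each from 20000 brain cells sorted as CD31+CD45- (CD31 marks endothelium and CD45 marks leukocytes). All mice were labelled male, C57BL/6 and 6 months old, with 3 libraries from WT mice, 3 from APP/PS1 mice and 3 from APP/PS1xRIPK1KD mice. Each library's description gives its own sample number. APP/PS1 is a common name for mice carrying human amyloid precursor protein and presenilin 1 transgenes that deposit amyloid in the brain. The third genotype adds an altered Ripk1, which encodes a kinase of cell death and inflammatory signalling. The transgene promoters and the meaning of KD are not given in the sources used here, so the groups are named as labelled.

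Blood flowing over an endothelial cell drags on its surface, and this shear is passed through junctional and G protein sensors and a kinase route ending in MEF2 factors to the transcription factor genes Klf2 and Klf4. KLF2 and KLF4 are known to raise Nos3, which makes the vasodilator nitric oxide, and to lower Edn1, which encodes a peptide that constricts vessels. S1pr1, the Calcrl and Ramp2 receptor, Ednrb and Ptgs1 belong to other endothelial systems that set vessel tone and barrier tightness through lipid, peptide and prostanoid signals.

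Levels are given as CPM (a gene's share of the counts of a library, scaled to a fixed total) with each library scaled by its TMM factor, a correction for differences in library composition. A difference between genotypes is the log2 fold change from an edgeR quasi-likelihood fit of all 9 libraries, with its standard error, and p was adjusted by Benjamini-Hochberg over the 13317 genes, with a threshold of 0.05. Total expected counts ran from 16263792 in APP/PS1 replicate 1 to 52413200 in APP/PS1 replicate 3, with a median of 46603518. The ribosomal transcript Rn45s took 29.65% to 33.77% of them in WT, 15.78% to 28.62% in APP/PS1 and 20.18% to 26.43% in APP/PS1xRIPK1KD. Every WT library was thus above every transgenic one in Rn45s. In a fit with Rn45s left out, 0 of the 9 genes were called for APP/PS1 against WT. The 10 endothelial markers summed to between 21787 and 25783 CPM in the 9 libraries, and Slc2a1 at 7641 and Cldn5 at 7041 CPM on average were the most abundant of them. In 6 libraries the RNA went against the male label: replicates 1 and 2 of each genotype had 264 to 534 CPM of Xist, an RNA of female cells, and at most 0.434 CPM summed over Y-linked genes. Replicate 3 of each genotype had at most 4.78 CPM of Xist and 150 to 185 CPM of Y-linked genes. Since this split is the same in each genotype, results are also given without replicate 3 of each genotype. Ripk1 itself was at 45.0, 48.1 and 34.9 CPM in WT, 75.3, 52.9 and 40.9 in APP/PS1 and 31.4, 44.9 and 35.5 in APP/PS1xRIPK1KD. The APP/PS1xRIPK1KD libraries overlapped both other genotypes in Ripk1, and the difference from APP/PS1 was -0.59 ± 0.23 (SE, adjusted p = 0.980, edgeR), so the level of this transcript does not check the label.

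Per kilobase of merged exon, the mean levels over all 9 libraries ranged from those of S1pr1 down to those of Ptgs1. S1pr1 was the most abundant at 378 ± 61.0 CPM per kb (SD, n = 9), and its lowest library (309) was above the highest of Ramp2 (285). Ramp2 followed at 210 ± 33.4, Klf2 at 174 ± 45.6 and Nos3 at 154 ± 26.8 CPM per kb, and these 3 neighbours overlapped between libraries. Edn1 at 75.4 ± 12.4 and Klf4 at 73.4 ± 14.2 CPM per kb overlapped each other, and the highest Edn1 library (89.3) was below the lowest Nos3 library (112). Calcrl at 16.1 ± 4.32, Ednrb at 8.24 ± 3.53 and Ptgs1 at 7.77 ± 3.08 CPM per kb were the lowest, with overlap between each and the next. By CPM alone S1pr1 ranked 57th, Ramp2 110th and Nos3 117th of all genes, and Ptgs1 ranked 4957th. The choice of length matters for 4 of the genes: with the mean transcript length in place of merged exons, Ramp2 stood at 796, Klf4 at 152, Calcrl at 25.2 and Ptgs1 at 20.0 CPM per kb, which puts Ramp2 above S1pr1 and Klf4 beside Nos3. By that length Ednrb, at 9.79 CPM per kb, was the lowest in place of Ptgs1, and the libraries of these genes overlapped.

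**Figure D1:**
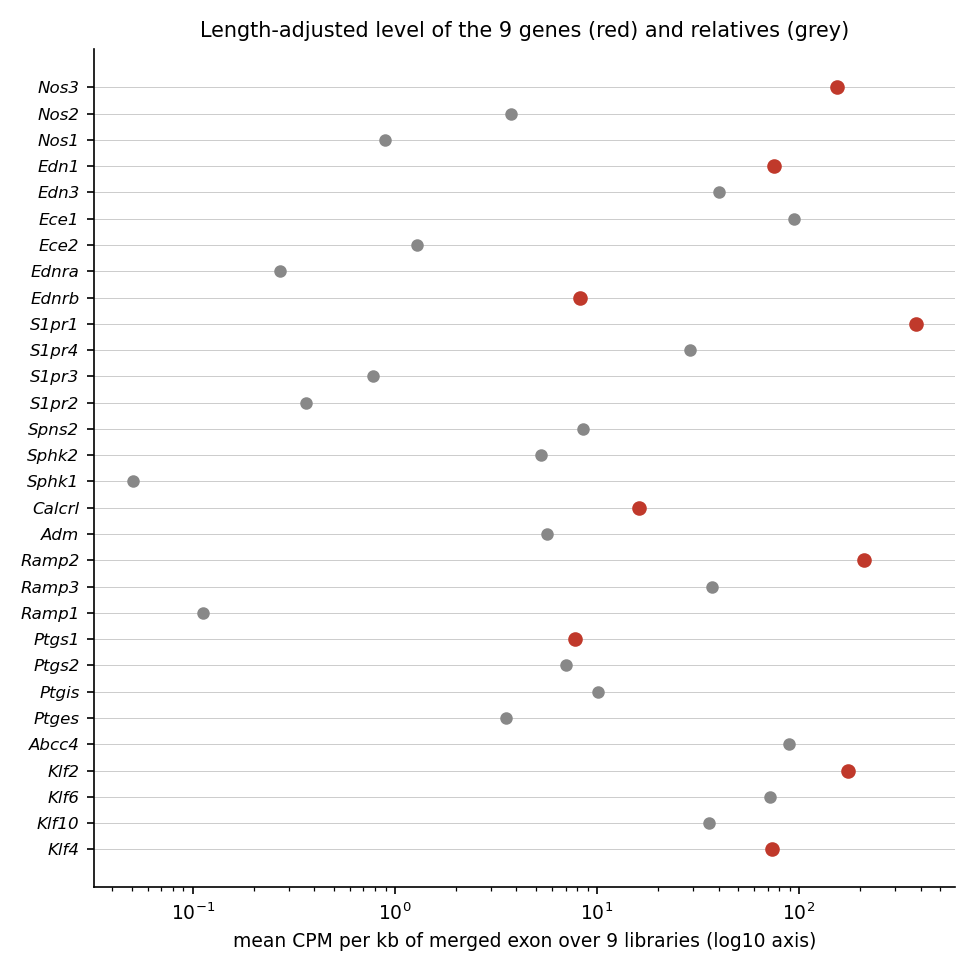
Mean CPM per kb of merged exon over the 9 libraries on a log10 axis, for the 9 genes (red) and relatives or partners of each (grey). S1pr1 is the highest point at 378, and Ednrb and Ptgs1 are the lowest red points at 8.24 and 7.77.

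The expected count behind a value was lowest for Ednrb (436 counts in its shallowest value) and for Ptgs1 (463), and at least 1271 in every library for the other 7 genes. Ednrb and Ptgs1 were also the most variable: the highest library was 4.99 times the lowest for Ednrb and 3.41 times for Ptgs1, against 1.56 to 2.24 times for the other 7. The fitted coefficient of biological variation was 0.374 for Ednrb and 0.310 for Ptgs1, and 0.156 for S1pr1, a value lower than that of most genes (10.8% of genes were lower still).

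Klf2 and Klf4 encode zinc finger transcription factors of the same family. Klf2 lies at chr8:72319033-72321656 on the plus strand and Klf4 at chr4:55527143-55532466 on the minus strand (GRCm38, GENCODE M21). Their upstream sequences are shown because the pair is the transcription factor arm of the set and because Klf2 is a textbook MEF2 target. Both are from RefSeq on GRCm38.p6, for chr8:72318812-72319032 (plus strand, ending where the first annotated exon begins) and chr4:55532476-55532725 (minus strand), and capitals mark CTAAAT or its reverse complement ATTTAG.
Klf2: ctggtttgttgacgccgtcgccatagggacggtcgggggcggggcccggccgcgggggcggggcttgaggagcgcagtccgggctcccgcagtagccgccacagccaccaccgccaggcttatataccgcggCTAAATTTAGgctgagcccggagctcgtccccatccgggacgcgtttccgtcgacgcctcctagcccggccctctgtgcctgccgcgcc
Klf4: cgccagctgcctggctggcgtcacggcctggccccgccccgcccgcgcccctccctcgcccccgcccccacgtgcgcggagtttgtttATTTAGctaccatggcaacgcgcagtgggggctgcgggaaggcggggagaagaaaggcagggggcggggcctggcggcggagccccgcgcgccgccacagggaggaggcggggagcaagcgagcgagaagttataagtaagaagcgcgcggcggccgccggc
In Klf2 the overlapping copies form CTAAATTTAG, a palindrome that matches the MEF2 consensus at bases -118 to -109 from the RefSeq start. Klf4 held a single copy, at -162 to -157, and no full MEF2 match. Searching 250 bases upstream on both strands, CTAAAT was in 8.08% and the MEF2 consensus in 2.89% of 32536 RefSeq windows. Of the 6 genes with an entry in that table, the other 4 (Edn1, Ednrb, Calcrl and Ptgs1) held neither. The short KLF-type motif CACCC was in the windows of Klf2, Edn1, Ednrb and Calcrl, but also in 52.1% of all windows. In Klf2 it was at -19 to -15, in annotated exon and outside the sequence printed above. In Calcrl it was at -78 to -74, also in annotated exon. The Ednrb window lay inside the annotated span of its gene. All of these are matches of letters only.

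Klf2 was measured at 442, 304 and 221 CPM in WT replicates 1, 2 and 3, at 404, 362 and 298 in APP/PS1 and at 197, 390 and 271 in APP/PS1xRIPK1KD. The 3 genotypes overlapped throughout, and both the highest library (WT replicate 1) and the lowest (APP/PS1xRIPK1KD replicate 1) lay outside APP/PS1. The log2 difference was 0.14 ± 0.26 for APP/PS1 against WT (SE, adjusted p = 0.975) and -0.31 ± 0.26 for APP/PS1xRIPK1KD against APP/PS1 (adjusted p = 1.000), by edgeR. The 95% interval of the first, -0.44 to 0.71, leaves room for a change of either sign, and without WT replicate 3 the estimate was -0.07.

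Klf4 was measured at 219, 227 and 169 CPM in WT, at 313, 247 and 240 in APP/PS1 and at 173, 202 and 223 in APP/PS1xRIPK1KD. Every APP/PS1 library was above every library of the other genotypes, and WT and APP/PS1xRIPK1KD overlapped. Klf4 was the only one of the 9 genes whose libraries did not overlap in a comparison. Any such separation was found in 10.9%, 9.98% and 12% of all genes tested in the comparisons of APP/PS1 with WT, APP/PS1xRIPK1KD with APP/PS1 and APP/PS1xRIPK1KD with WT. Of all genes, 5.43% had APP/PS1 libraries all above WT, 4.66% had APP/PS1xRIPK1KD libraries all below APP/PS1, and 1.16% had APP/PS1 above both. The log2 difference was 0.38 ± 0.16 for APP/PS1 against WT (95% interval 0.04 to 0.72, adjusted p = 0.795). It was -0.42 ± 0.16 for APP/PS1xRIPK1KD against APP/PS1 (-0.77 to -0.08, adjusted p = 0.980) and -0.04 ± 0.16 for APP/PS1xRIPK1KD against WT (adjusted p = 0.999), all by edgeR. The first 2 comparisons share the APP/PS1 libraries, and neither passed the threshold. Without replicate 3 of each genotype the same differences were 0.33 and -0.58, with adjusted p of 0.489 and 0.434. The authors' deposited table of APP/PS1 against WT gives 0.36 for Klf4 with an FDR of 0.787.

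**Figure D2:**
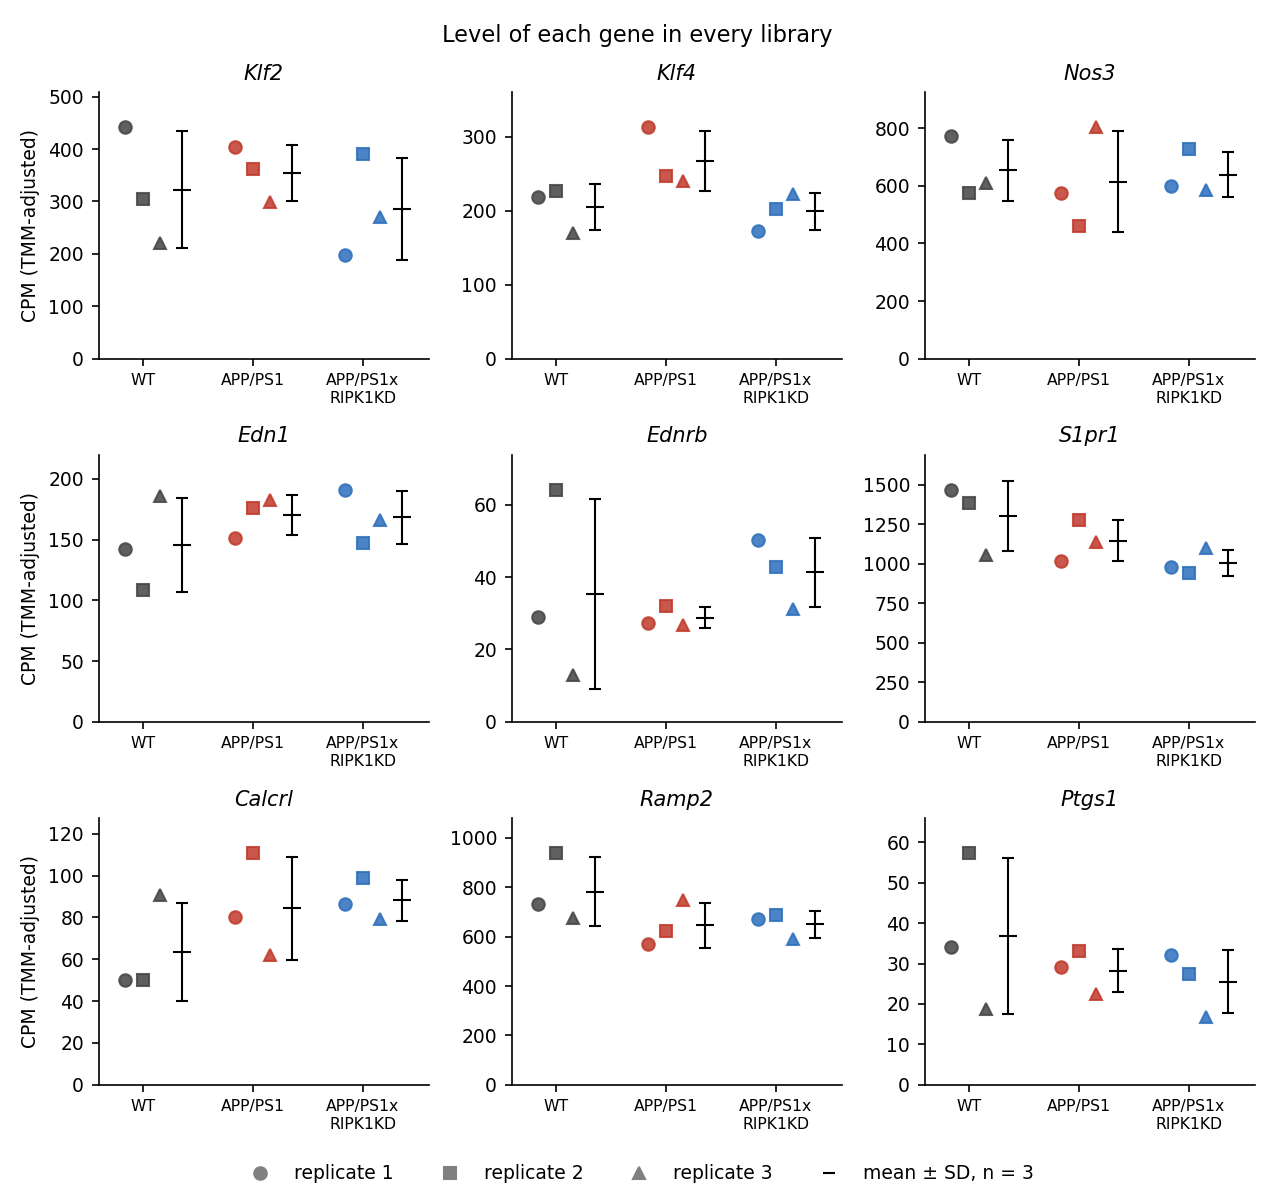
TMM-adjusted CPM of each gene in every library, by genotype, on linear axes starting at 0; circles, squares and triangles are replicates 1, 2 and 3, and the black bar is the mean ± SD (n = 3). In the Klf4 panel the APP/PS1 points (240 to 313) all lie above the others, while in the other 8 panels the genotypes overlap in every comparison.

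Over the 9 libraries Klf4 ran with the sum of 21 immediate early and dissociation response genes, called the immediate early list below. It holds transcripts such as Fos, Egr1 and Atf3 that rise within minutes of stimulation and also during tissue dissociation. Heat shock genes such as Hspa1a, at 200 CPM on average, are on it too. The summed level of the 21 was 1993, 1685 and 1299 CPM in WT, 3016, 1705 and 2589 in APP/PS1 and 1280, 1556 and 1959 in APP/PS1xRIPK1KD. Of 10 relations tested, that of log2 Klf4 with this sum was the single one to pass: Pearson r = 0.90 (exact permutation p = 0.00126, adjusted p = 0.0126, n = 9) and Spearman rho = 0.78 (exact permutation p = 0.0172, adjusted p = 0.127). Without the 2 libraries farthest from the median sum r was 0.74 (n = 7), and within replicates 1 and 2 it was 0.92 (n = 6, exact permutation p = 0.0153, adjusted p = 0.153). The permutation moved libraries freely across genotypes, and APP/PS1 had the highest mean of both Klf4 and the sum. These p-values therefore do not separate a shared genotype difference from a relation between single libraries. The list was also chosen with earlier results of these data known. Klf2 against the same sum gave r = 0.58 and rho = 0.60 (exact permutation p = 0.103 and 0.0968, adjusted p = 0.257 and 0.323, n = 9), with r = 0.46 without the 2 farthest libraries and 0.67 within replicates 1 and 2. The genes of the list did not pass the test singly, with 0 of 21 called in any comparison. For APP/PS1 against WT 17 of 21 estimates were above 0 (median 0.51). For APP/PS1xRIPK1KD against APP/PS1 19 of 21 were below 0 (median -0.50). Fos, part of the AP-1 factor, was at 31.9 ± 3.24 CPM in WT, 182 ± 97.0 in APP/PS1 and 62.3 ± 40.0 in APP/PS1xRIPK1KD (SD, n = 3). Cyr61, a matricellular protein gene, was at 44.5 ± 12.6, 154 ± 99.1 and 59.6 ± 10.3 CPM in the same order. The adjusted p of APP/PS1 against WT was 0.707 for Fos and 0.741 for Cyr61 by edgeR.

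**Figure D3:**
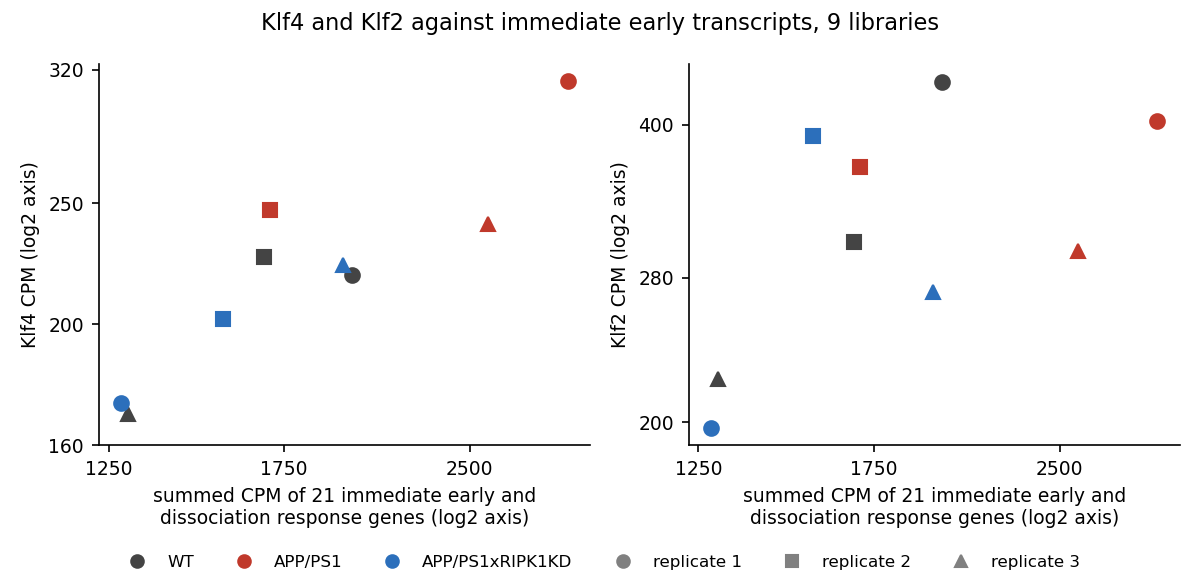
CPM of Klf4 (left) and Klf2 (right) against the summed CPM of 21 immediate early and dissociation response genes, 1 point per library, both axes log2-scaled; colours are genotypes and shapes are replicates. Klf4 climbs with the sum from WT replicate 3 and APP/PS1xRIPK1KD replicate 1 at the lower left to APP/PS1 replicate 1 at the upper right (r = 0.90), and Klf2 is more scattered (r = 0.58).

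Markers of mural cells, the contractile cells and pericytes around vessels, were, like Klf4, at a higher level in APP/PS1 than in WT. The 16 markers summed to 14.5 to 61.1 CPM in WT, 192 to 248 in APP/PS1 and 71.8 to 268 in APP/PS1xRIPK1KD, and 14 of the 16 had APP/PS1 libraries all above WT. In APP/PS1xRIPK1KD every mural sum was above the highest WT sum, while Klf4 overlapped WT. All 16 estimates were below 0 for APP/PS1xRIPK1KD against APP/PS1 (median -0.45), with sums that overlapped. Of the 16, Vtn and Atp13a5 passed the threshold for APP/PS1 against WT (adjusted p = 0.0135 for both) and Atp13a5 for APP/PS1xRIPK1KD against WT (adjusted p = 0.0122), by edgeR. None of the 16 was at 0 in all libraries, and the most abundant, Acta2, averaged 34.4 CPM. Of 8 oligodendrocyte markers 7 were tested, and all 7 were above 0 for APP/PS1 against WT (median 2.88) and below 0 for APP/PS1xRIPK1KD against APP/PS1 (median -1.83). Their sums were 29.6 to 40.4 CPM in WT, 33.3 to 86.6 in APP/PS1 and 32.5 to 34.5 in APP/PS1xRIPK1KD. Of 6 fibroblast markers 4 were tested, with all 4 above 0 in the first comparison (median 3.89) and below 0 in the second (median -1.16), at sums of at most 13.4 CPM. No oligodendrocyte marker was at 0 in all libraries, and the fibroblast marker Lum was. No marker of these 2 types passed the threshold. The part of the mural, oligodendrocyte, fibroblast and immediate early list transcripts in the Klf4 difference was not tested. In bulk RNA fewer cells of a type and less RNA per cell cannot be told apart.

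Of the genes averaging 5 CPM or more, those alike to Klf4 over the 9 libraries included Atf3 (r = 0.94, itself on the immediate early list) and Iars (r = 0.93). For Klf2 they were Slc26a2 (r = 0.94), Casp9 (r = 0.93) and Map7 (r = 0.91). Klf2 and Klf4 gave r = 0.68 with each other (exact permutation p = 0.0421, adjusted p = 0.140, n = 9) and rho = 0.48 (exact permutation p = 0.194, adjusted p = 0.388). Without the 2 farthest libraries r was 0.69, and within replicates 1 and 2 it was 0.63. No relation of either factor with a gene named among its targets passed. Klf2 with Nos3 gave r = 0.18 and rho = 0.02 (exact permutation p = 0.643 and 0.982, adjusted p = 0.680 and 0.982). Klf2 with S1pr1 gave r = 0.38 and rho = 0.30 (exact permutation p = 0.306 and 0.437, adjusted p = 0.438 and 0.485). Klf4 with Nos3 gave r = -0.16 and rho = -0.43 (exact permutation p = 0.680 and 0.2499, adjusted p = 0.680 and 0.417). Klf4 with S1pr1 gave r = 0.22 and rho = 0.33 (exact permutation p = 0.567 and 0.385, adjusted p = 0.680 and 0.482). For these 4 pairs r ran from -0.15 to 0.60 without the 2 farthest libraries and from -0.36 to 0.32 within replicates 1 and 2. Klf2 and Edn1 ran in opposite directions, with r = -0.49 (exact permutation p = 0.179, adjusted p = 0.299) and rho = -0.75 (exact permutation p = 0.0255, adjusted p = 0.127), which did not pass. That r was -0.29 without the 2 farthest libraries and -0.35 within replicates 1 and 2.

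The genes that lead to Klf2 and Klf4 and those that follow them gave no call. Of 20 genes of flow sensing and the kinase route, 0 passed in any comparison, and 6 were above 0 for APP/PS1 against WT (median -0.07). Kdr, the VEGF receptor that is part of the junctional flow sensor, was at 404 ± 95.8 CPM in WT, 335 ± 33.6 in APP/PS1 and 527 ± 137 in APP/PS1xRIPK1KD, a log2 difference between the last 2 of 0.65 ± 0.21 (SE, adjusted p = 0.980, edgeR). Mef2a, a MEF2 factor gene, was at 40.1 ± 2.28, 48.6 ± 5.30 and 52.0 ± 2.39 CPM, with both transgenic genotypes above every WT library and 0.37 ± 0.14 for APP/PS1xRIPK1KD against WT (adjusted p = 0.721, edgeR). Mef2a and the pathway genes named below were picked for a small p, a pick that favours libraries without overlap. Separation from WT in either direction was found in 10.9% of all genes for APP/PS1 and 12% for APP/PS1xRIPK1KD. The share of genes with both was not counted. Of 16 genes reported as raised or lowered by KLF2 or KLF4, 13 were tested and 0 passed, with 9 above 0 for APP/PS1 against WT. Angpt2, which destabilizes vessels and is known to be lowered by KLF2, was at 13.3 ± 1.43 CPM in WT, 27.9 ± 3.82 in APP/PS1 and 19.7 ± 5.71 in APP/PS1xRIPK1KD. Its APP/PS1 libraries were all above WT (1.07 ± 0.25, adjusted p = 0.707, edgeR). Plat, encoding tissue plasminogen activator, was at 813 ± 207, 819 ± 195 and 657 ± 43.0 CPM.

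Nos3 encodes the endothelial nitric oxide synthase and lies at chr5:24364810-24384474 (plus strand). It was measured at 774, 575 and 611 CPM in WT, at 576, 462 and 804 in APP/PS1 and at 601, 729 and 585 in APP/PS1xRIPK1KD. The highest and the lowest library were both APP/PS1, and the genotypes overlapped. Differences were -0.09 ± 0.19, 0.06 ± 0.19 and -0.03 ± 0.19 for APP/PS1 against WT, APP/PS1xRIPK1KD against APP/PS1 and APP/PS1xRIPK1KD against WT, with adjusted p of 0.981, 1.000 and 0.999 (edgeR). The 95% interval of the first, -0.51 to 0.33, bounds a change at 0.704 to 1.25 times WT. The first difference turned to 0.08 without APP/PS1 replicate 2 and 0.05 without WT replicate 1. Exons of the antisense gene Atg9b cover 7.12% and those of Gm15587 cover 25.2% of Nos3 exon bases, and the protocol keeps no strand. Atg9b itself was at 3.92 to 13.5 CPM.

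The other synthases were far below Nos3 per kilobase, with Nos2 at 3.76 and Nos1 at 0.897 CPM per kb. Of 28 nitric oxide pathway genes, 0 passed in any comparison, and 15 were above 0 for APP/PS1 against WT, with a median of 0.00. Hsp90aa1, encoding a chaperone that binds and activates the synthase, was at 251 ± 14.9 CPM in WT, 432 ± 97.7 in APP/PS1 and 390 ± 107 in APP/PS1xRIPK1KD. Hsp90ab1, its constitutive relative, was at 997 ± 17.5, 1399 ± 200 and 1378 ± 276 CPM. For both chaperones every library of the 2 transgenic genotypes was above every WT library, and the adjusted p values of APP/PS1 against WT were 0.707 and 0.787 (edgeR). Both were picked for the smallest p of the 28, and the share of all genes with such a pattern was not counted.

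Edn1 encodes the precursor of endothelin 1 and lies at chr13:42301476-42307990 (plus strand). It was measured at 142, 109 and 186 CPM in WT, at 151, 176 and 183 in APP/PS1 and at 191, 148 and 167 in APP/PS1xRIPK1KD. The APP/PS1 libraries all lay inside the WT range, while the lowest value was WT replicate 2. Differences were 0.23 ± 0.18 for APP/PS1 against WT, -0.02 ± 0.18 for APP/PS1xRIPK1KD against APP/PS1 and 0.21 ± 0.18 for APP/PS1xRIPK1KD against WT, with adjusted p of 0.911, 1.000 and 0.975 (edgeR). The 2 differences from WT were 0.05 and 0.04 without WT replicate 2, and 0.44 and 0.43 without WT replicate 3.

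Ednrb encodes the endothelin receptor that endothelial cells carry, and lies at chr14:103814625-103844402 (minus strand). It was measured at 29.1, 64.1 and 12.9 CPM in WT, at 27.4, 32.1 and 26.6 in APP/PS1 and at 50.1, 42.7 and 31.2 in APP/PS1xRIPK1KD. WT held both the highest and the lowest library, and replicate 3 was the lowest of each genotype. The difference of APP/PS1 against WT was -0.30 ± 0.44 (SE, adjusted p = 0.967, edgeR) and became 0.46 without WT replicate 2. APP/PS1xRIPK1KD against APP/PS1 gave 0.52 ± 0.44 (95% interval -0.44 to 1.48, adjusted p = 1.000), and against WT 0.23 ± 0.43 (adjusted p = 0.997). Astrocytes also express Ednrb, and the 10 astrocyte markers summed to 78.3, 110.7 and 39.4 CPM in WT, the same order of libraries as Ednrb. They summed to 73.9, 72.3 and 79.6 CPM in APP/PS1 and to 77.6, 94.5 and 81.0 in APP/PS1xRIPK1KD, where the order differed from that of Ednrb: the highest Ednrb library of each had the lowest sum. Gja1 made up most of these sums at 68.7 CPM on average. No astrocyte marker was at 0 in all libraries, 5 of 10 were at 0 in at least 1, and the defining marker Aqp4 averaged 0.117 CPM. Of the 7 tested, 6 were above 0 for APP/PS1 against WT (median 1.60), and 0 passed. Those 6 averaged at most 5.17 CPM each, while Gja1, like Ednrb, was below 0 (-0.22 ± 0.28, SE, edgeR). The summed level averaged 76.1 CPM in WT and 75.3 in APP/PS1. The part of astrocyte RNA in the Ednrb values was not tested. Edn1 and Ednrb gave r = -0.54 and rho = -0.33 (exact permutation p = 0.139 and 0.385, adjusted p = 0.278 and 0.482, n = 9). That r was -0.23 without the 2 farthest libraries and -0.36 within replicates 1 and 2.

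The rest of the endothelin system was uneven in level. Edn3, another ligand gene, was at 40.4 and the converting enzyme gene Ece1 at 94.3 CPM per kb, against 75.4 for Edn1. Ednra, the receptor gene of contractile mural cells, was at 0.235 ± 0.408 CPM in WT, 3.08 ± 0.833 in APP/PS1 and 1.12 ± 1.04 in APP/PS1xRIPK1KD. Of 7 endothelin pathway genes 5 were tested and 0 passed in any comparison. Ece1 was at 529 ± 46.6, 449 ± 47.7 and 522 ± 14.8 CPM in the 3 genotypes in the same order. Ece2, a related enzyme gene, was at 8.93 ± 0.911, 5.55 ± 0.534 and 5.18 ± 1.75 CPM, with every transgenic library below every WT library (-0.79 ± 0.34 for APP/PS1xRIPK1KD against WT, adjusted p = 0.776, edgeR). Ece2 was picked for its small p, and how many of all genes show this pattern was not counted.

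S1pr1 encodes a receptor for sphingosine 1-phosphate that tightens the endothelial barrier, and lies at chr3:115710433-115715072 (minus strand). It was measured at 1467, 1387 and 1053 CPM in WT, at 1019, 1277 and 1138 in APP/PS1 and at 977, 941 and 1097 in APP/PS1xRIPK1KD. WT replicates 1 and 2 were the highest of all, and the overlap of WT with APP/PS1xRIPK1KD came from WT replicate 3, at 1053 against a highest APP/PS1xRIPK1KD library of 1097. The difference of APP/PS1xRIPK1KD against WT was -0.37 ± 0.14 (95% interval -0.69 to -0.06, adjusted p = 0.721, edgeR). That of APP/PS1 against WT was -0.19 ± 0.14 (adjusted p = 0.907) and that of APP/PS1xRIPK1KD against APP/PS1 was also -0.19 ± 0.14 (adjusted p = 1.000). Without replicate 3 of each genotype the difference from WT in APP/PS1xRIPK1KD was -0.57 (adjusted p = 0.358), over 1.5 times its size with all libraries.

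S1pr1 was by far the most abundant receptor gene of its family per kilobase: S1pr4 was at 28.8, S1pr3 at 0.776 and S1pr2 at 0.363 CPM per kb. Of 16 genes of sphingosine 1-phosphate metabolism and signalling, 13 were tested and 0 passed, and 10 were above 0 for APP/PS1xRIPK1KD against APP/PS1. Sphk2, a kinase gene that makes the lipid, was at 17.8 ± 3.89 CPM in WT, 19.5 ± 2.52 in APP/PS1 and 28.4 ± 5.76 in APP/PS1xRIPK1KD. Sgpl1, the lyase gene that degrades it, was at 21.3 ± 4.21, 19.2 ± 3.15 and 13.7 ± 3.29 CPM. In both, APP/PS1xRIPK1KD did not overlap WT, with adjusted p of 0.662 for Sphk2 and 0.739 for Sgpl1 (edgeR).

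Calcrl and Ramp2 encode the parts of the adrenomedullin receptor, a G protein-coupled receptor and the small membrane protein that sets its ligand. Calcrl lies at chr2:84330626-84425411 (minus strand) and Ramp2 at chr11:101246028-101259546 (plus strand). Calcrl was measured at 50.2, 50.0 and 90.7 CPM in WT, at 80.0, 110.9 and 62.0 in APP/PS1 and at 86.3, 98.9 and 79.2 in APP/PS1xRIPK1KD. WT replicates 1 and 2 were the lowest of the 9 libraries, and WT replicate 3 lay among the transgenic ones. The difference from WT was 0.41 ± 0.25 in APP/PS1 (adjusted p = 0.859) and 0.47 ± 0.25 in APP/PS1xRIPK1KD (95% interval -0.08 to 1.02, adjusted p = 0.877), by edgeR. Without replicate 3 of each genotype these were 0.93 and 0.89, with adjusted p of 0.200 and 0.283, and leaving out WT replicate 3 alone gave 0.75 and 0.82. Other libraries moved the APP/PS1 estimate the other way, to 0.15 without APP/PS1 replicate 2 and to 0.26 without WT replicate 1 or without WT replicate 2. Between the transgenic genotypes the difference was 0.06 ± 0.25 (adjusted p = 1.000, edgeR).

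Ramp2 was measured at 731, 940 and 674 CPM in WT, at 569, 621 and 747 in APP/PS1 and at 672, 687 and 589 in APP/PS1xRIPK1KD. WT replicate 2 was the highest library, and the others overlapped between genotypes. The differences from WT were -0.27 ± 0.15 in both APP/PS1 (adjusted p = 0.829) and APP/PS1xRIPK1KD (adjusted p = 0.885), and APP/PS1xRIPK1KD against APP/PS1 was 0.01 ± 0.15 (adjusted p = 1.000), by edgeR. Without replicate 3 of each genotype the APP/PS1 difference was -0.49 (adjusted p = 0.307). Without WT replicate 2 the differences from WT were -0.12 in APP/PS1 and -0.11 in APP/PS1xRIPK1KD. Exons of Vps25 on the same strand share 33.4% of the Ramp2 exon bases, and Vps25 was at 73.4 to 102 CPM, so the split of reads between them is uncertain. Calcrl and Ramp2 gave r = -0.69 (exact permutation p = 0.0368, adjusted p = 0.140, n = 9) and rho = -0.52 (exact permutation p = 0.162, adjusted p = 0.388). Without the 2 farthest libraries r was -0.28, so the negative relation rests on those libraries, and within replicates 1 and 2 it was -0.71.

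The relatives of Ramp2 were lower, with Ramp3 at 37.3 and Ramp1 at 0.112 CPM per kb, and the ligand gene Adm was at 5.64. Of 12 adrenomedullin and CGRP pathway genes, 9 were tested and 0 passed in any comparison. Ackr3, a decoy receptor gene that also takes up adrenomedullin, was at 107 ± 43.1, 76.1 ± 5.19 and 96.7 ± 19.1 CPM in WT, APP/PS1 and APP/PS1xRIPK1KD.

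Ptgs1 encodes cyclooxygenase 1, the constitutive enzyme of prostanoid synthesis, and lies at chr2:36230426-36252272 (plus strand). It was measured at 34.2, 57.4 and 18.9 CPM in WT, at 29.1, 33.1 and 22.5 in APP/PS1 and at 32.1, 27.5 and 16.8 in APP/PS1xRIPK1KD. Here the libraries divided by replicate number rather than by genotype: the 3 replicate 3 libraries, at 16.8 to 22.5 CPM, were all below the other 6, at 27.5 to 57.4. Ptgs1 was the only one of the 9 genes with a division of either direction, which 2.49% of all genes tested showed (1.13% with replicate 3 below). It follows the Xist and Y-linked split, and sex and whatever else the numbers share cannot be told apart. The difference of APP/PS1 against WT was -0.38 ± 0.35 (SE, adjusted p = 0.927, edgeR) and 0.09 without WT replicate 2. That of APP/PS1xRIPK1KD against APP/PS1 was -0.15 ± 0.35 (adjusted p = 1.000) and against WT -0.53 ± 0.35 (95% interval -1.29 to 0.23, adjusted p = 0.908). Without WT replicate 2 the last was -0.06, and without WT replicate 3 it was -0.85. Microglia and platelets express Ptgs1 too. The 10 microglial markers summed to 64.8, 102 and 54.4 CPM in WT, the same order of libraries as Ptgs1, to 57.7 to 110 in APP/PS1 and to 70.7 to 94.5 in APP/PS1xRIPK1KD. No microglial marker was at 0 in all libraries. The 8 platelet markers summed to at most 9.24 CPM, with Itga2b the most abundant at 1.43 and Gp6 at 0 in all libraries. The part of either cell type in the Ptgs1 values was not tested.

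Ptgs2, the inducible cyclooxygenase gene, was at 7.07 CPM per kb, against 7.77 for Ptgs1, and the prostacyclin synthase gene Ptgis was at 10.1. Ptgs2 ran from 6.75 to 127 CPM within WT, and Ptgs1 was at 20.0 CPM per kb by mean transcript length. The levels of these genes are therefore not ranked. Of 20 prostanoid pathway genes, 16 were tested and 0 passed in any comparison, with 7 above 0 for APP/PS1 against WT. Abcc4, encoding an exporter of prostaglandins and other anions, was at 642 ± 48.0 CPM in WT, 556 ± 43.4 in APP/PS1 and 510 ± 65.4 in APP/PS1xRIPK1KD. Every transgenic library of Abcc4 was below every WT library, with -0.33 ± 0.13 for APP/PS1xRIPK1KD against WT (adjusted p = 0.721, edgeR). This gene too was picked for its small p, and the share of all genes with the pattern was not counted. Slco2a1, the prostaglandin uptake transporter gene, was at 12.7 ± 0.868, 8.30 ± 3.01 and 13.6 ± 5.66 CPM.

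**Figure D4:**
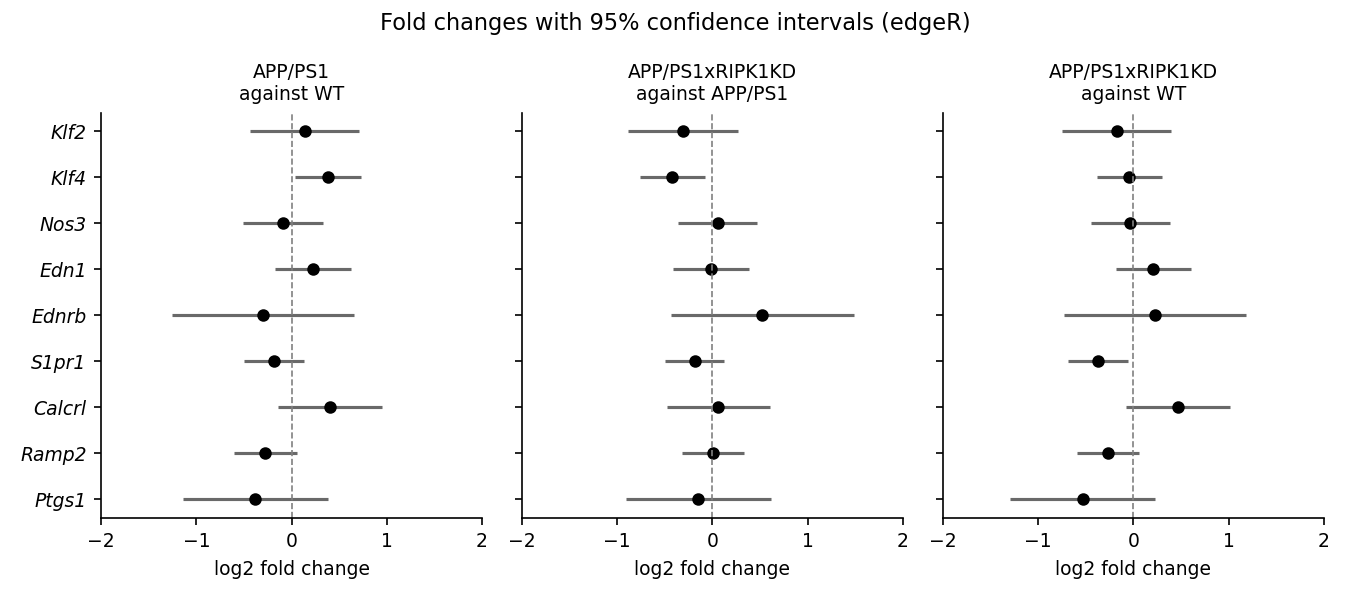
The log2 fold change of each gene (points) with its 95% confidence interval from edgeR (lines) in the 3 comparisons; the dashed line marks no difference. The interval leaves out 0 for Klf4 in the first 2 panels and for S1pr1 in the third, before adjustment for the number of genes, and the intervals of Ednrb and Ptgs1 are the widest.

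Across the set, 0 of the 9 genes passed the adjusted threshold in each of the 3 comparisons. The same threshold called 0.0225% of all genes tested for APP/PS1 against WT, 0.00751% for APP/PS1xRIPK1KD against APP/PS1 and 0.0375% for APP/PS1xRIPK1KD against WT. At an unadjusted p under 0.05 there was 1 of 9 in each (Klf4, Klf4 and S1pr1), where 6.14%, 4.78% and 6.18% of all genes were. The tools DESeq2, limma-voom and the edgeR exact test also called 0 of 9 in each comparison. The direction was mixed: 4, 4 and 3 of the 9 estimates were above 0, with medians of -0.09, -0.02 and -0.04, against medians of 0.00 over all genes. The largest estimates were 0.41, 0.52 and 0.53 in size, for Calcrl, Ednrb and Ptgs1. Without replicate 3 of each genotype the count stayed at 0 in each comparison, with a smallest adjusted p of 0.200, for Calcrl. For the genes not yet given in this setting, APP/PS1 against WT was then 0.04 for Klf2, -0.38 for Nos3, 0.39 for Edn1, -0.65 for Ednrb and -0.56 for Ptgs1. With an indicator for replicate 3 in the fit the smallest was 0.763. In the authors' deposited table of APP/PS1 against WT the FDR of each of the 9 genes was at least 0.787.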

How the data were processed

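The authors deposited expected counts per gene symbol in 9 columns, and per the submitters' processing notes the tools were Bowtie 0.12.2, RSEM and edgeR 3.10.2 on mm10 (GRCm38). Per the labels, libraries were poly(A)-primed Smart-seq2 and NexteraXT, without strand or molecular identifiers, so PCR copies count and counting error is a lower limit. The authors' deposited edgeR table holds log2 fold changes, a likelihood ratio score, a p-value and its FDR, and is used only where named.

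Expected counts were rounded and filtered by filterByExpr (minimum count 10, total 15). One edgeR 4.0.16 quasi-likelihood fit (robust, TMM, 1 coefficient per genotype, no covariate) over the 9 libraries gave 3 two-sided contrasts. The fit was tested on simulated data. Log2 CPM for correlations had a prior count of 2. Software was R 4.3.3, limma 3.58.1, DESeq2 1.42.0, Python 3.11.15 and scipy 1.17.1.

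The 9 genes, 8 pathway lists and 9 cell type lists were chosen with earlier results of these data known. From each pathway list the text names the genes past the threshold, otherwise the 2 of at least 5 CPM with the smallest p in any comparison; relatives of the 9 genes were added for their levels. For Klf2, Klf4 and genes without overlap, the 3 genes with the highest r were taken. Some genes that these rules select are not reported here. Of 224 list genes 222 matched by symbol, 1 by an older symbol (Ackr3) and 1 not. Replicates carry separate sample numbers and are treated as separate mice. Alternatives covered tools, scaling, filters, the replicate number and each library left out.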

Additional observations from a re-analysis of the deposited data

How the results depend on the processing

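The count of called genes among the 9 was 0 in all 3 comparisons under all 22 alternative settings, with a smallest adjusted p of 0.200. Of 594 single values of the 9 genes under these settings, 558 kept their sign and 36, in 14 of 27 gene by comparison results, changed it; no value that changed sign had passed the threshold. Without scaling factors, which moved the median of all genes by 0.17, 0.05 and 0.23 (log2) in APP/PS1 against WT, APP/PS1xRIPK1KD against APP/PS1 and APP/PS1xRIPK1KD against WT, Nos3 became 0.063 and S1pr1 0.0012 in the first, Edn1 0.028 in the second, and Klf2 0.070, Klf4 0.19 and Nos3 0.19 in the third. With limma-voom Ednrb became 0.071 in APP/PS1 against WT. Without replicate 3 of each genotype, Edn1 became 0.046 and Calcrl -0.046 in APP/PS1xRIPK1KD against APP/PS1 and Ednrb -0.0065 in APP/PS1xRIPK1KD against WT. The causes were not tested.

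Leaving out 1 library at a time, APP/PS1 against WT ranged over -0.074 to 0.43 for Klf2, -0.33 to 0.076 for Nos3, -0.70 to 0.46 for Ednrb and -0.70 to 0.091 for Ptgs1. APP/PS1xRIPK1KD against APP/PS1 ranged over -0.10 to 0.30 for Nos3, -0.11 to 0.079 for Edn1, -0.12 to 0.32 for Calcrl, -0.076 to 0.13 for Ramp2 and -0.34 to 0.082 for Ptgs1. APP/PS1xRIPK1KD against WT ranged over -0.45 to 0.12 for Klf2, -0.16 to 0.061 for Klf4, -0.13 to 0.11 for Nos3 and -0.17 to 0.98 for Ednrb. Klf4 kept its sign in the first 2 comparisons, at 0.25 to 0.46 and -0.50 to -0.29, as did S1pr1 in all 3, at -0.32 to -0.091, -0.27 to -0.090 and -0.51 to -0.28. The others that kept their sign still moved: Edn1 at 0.054 to 0.44 and 0.039 to 0.43, Calcrl at 0.15 to 0.75 and 0.32 to 0.82 and Ramp2 at -0.39 to -0.12 and -0.36 to -0.11, for APP/PS1 and APP/PS1xRIPK1KD against WT. So did Ptgs1 at -0.85 to -0.057 in APP/PS1xRIPK1KD against WT, and Klf2 at -0.59 to -0.095 and Ednrb at 0.37 to 0.70 in APP/PS1xRIPK1KD against APP/PS1.

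The replicate numbers did not pair the libraries: same-numbered libraries had correlations of their deviations from -0.03 to 0.24 over 9726 genes, with 3 of 9 pairs over 0.1. Those 3 are the pairs of replicate 3 libraries (0.10 to 0.24), which share the Y-linked RNA, while the 6 pairs of replicates 1 and 2 reached at most 0.086. For 5 of 9 libraries the best match had the same number. With a replicate block 0 of the 9 genes were called in each comparison, and the genes called among all tested were 2, 0 and 0, against 3, 1 and 5 without it. The other tools and settings gave 1 to 73, 0 to 32 and 0 to 86 genes among all tested, with 73, 32 and 86 by DESeq2 and 44, 32 and 72 by the edgeR exact test. Of the 10 relations across libraries, 1 passed with all libraries and 0 without replicate 3 of each genotype, where fewer libraries remain. Per length, the mean transcript length moved Klf4 to 152, Calcrl to 25.2, Ramp2 to 796 and Ptgs1 to 20.0 CPM per kb.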

Other observations

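Relatives of the 9 genes that the text above gives only per length had these levels by genotype, as means ± SD over 3 libraries. Edn3 was at 156 ± 18.7 CPM in WT, 177 ± 12.2 in APP/PS1 and 166 ± 44.0 in APP/PS1xRIPK1KD, so this endothelin gene was detected in every library of the sorted cells. S1pr4, a receptor gene best known from lymphocytes, was at 71.1 ± 12.5, 66.4 ± 16.6 and 68.9 ± 10.5 CPM, and the 7 matched leukocyte markers summed to at most 3.45 CPM in any library. The part of leukocyte RNA in the S1pr4 values was not tested. Ramp3 was at 59.0 ± 28.2, 41.1 ± 7.90 and 54.2 ± 22.6 CPM. Ptgs2 ranged from 6.75 to 127 CPM within WT, from 18.9 to 35.2 in APP/PS1 and from 12.4 to 25.4 in APP/PS1xRIPK1KD. Nos2 was at 15.3 ± 6.10, 12.0 ± 1.99 and 22.4 ± 7.20 CPM, and its APP/PS1xRIPK1KD libraries were all above APP/PS1 (0.90 ± 0.33, SE, adjusted p = 0.980, edgeR). These genes were singled out after their values were seen.

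All 36 pairs among the 9 genes were also correlated, a step added after seeing the data. None passed after adjustment over the 36 by the exact permutation test (smallest adjusted p = 0.379).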
